A study of Homo sapiens with 17 samples.

Results

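The mRNAs described here encode the translation initiation factors (eIFs), the elongation factors (eEFs) and the regulators that carry an *EIF* or *EEF* symbol. Members were the genes of the 1 h read table whose symbol was *EIF* or *EEF* followed by a digit and then only letters and digits, with *EIF4E2* and 2 annotated pseudogenes left out, which gave 60 of 19222 genes. The symbol rule used no measured value, but members were chosen with earlier results of these data known. HEK-293T, a human embryonic kidney cell line with the genotype given as WT, was used throughout. In the 1 h experiment, 3 libraries came from cells given 500 µM s4U (4-thiouridine, a uridine analog built into new RNA) and 3 from cells given s4U together with 1.8 µM emetine, an alkaloid that stops elongating ribosomes. 1 untreated and 1 emetine library of the same hour received no s4U. The 2 h experiment used 250 µM s4U in all 9 of its libraries, of which 3 were untreated, 3 received emetine at 1.8 µM and 3 received it at 240 µM.

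Initiation begins when eIF2, bound to GTP, brings the initiator tRNA to the small ribosomal subunit together with eIF1, eIF1A, eIF3 and eIF5. The eIF4 factors bind the mRNA cap and unwind the leader, the complex scans to a start codon, and eIF5B joins the large subunit. During elongation eEF1A delivers aminoacyl-tRNA and eEF2 moves the ribosome along the message, which is the step that emetine blocks. Many abundant mRNAs of this machinery start with a terminal oligopyrimidine tract (TOP), a C followed by a run of pyrimidines, through which their translation responds to growth signals.

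The 6 libraries with s4U held between 22246279 and 40018063 reads given to 1 gene, and the libraries without s4U held 23905660 (untreated) and 31314746 (emetine). Of the 60 members, 58 had more than 100 reads over the 6 libraries and were tested for their level, and 57 had at least 100 reads in each library, which was required for the fraction new. *EIF3C* and *EIF4E1B* were not tested, with 7 and 8 reads in total, and *EIF4EBP3* was tested for level only. Emetine replicate 3 differed from the remaining libraries. The deviations of its genes from their group mean had an SD of 0.253 on the log2 scale against 0.0828 to 0.151 in the other 5 libraries, and they rose with transcript length (Spearman's rho 0.772 over 10260 genes, described only), while rho was -0.703 and -0.700 in emetine replicates 1 and 2, whose deviations are tied to those of replicate 3 through the mean of the 3. Values are therefore given with and without it. Of the genes used to check the cell line, chosen after the files were opened, *NEFM* lay between 141 and 216.5 CPM (a gene's reads scaled to the library total) and *LIN28B* between 49.8 and 93.4 CPM in the 8 libraries, whereas the leukocyte gene *PTPRC* was at 0 and the liver gene *ALB* at no more than 0.347 CPM.

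Levels in untreated cells were compared between genes only per length, as the CPM divided by the kilobases of the canonical transcript (RPKM). The 5 highest were *EIF5A* and 4 of the 7 eEF1 and eEF2 mRNAs, whereas *EEF1D*, *EEF1A2* and *EEF1E1* stood at ranks 11, 23 and 39. *EIF4A1* was not ranked, because its reads were given jointly to it and an overlapping gene. These shared reads were at 1914 ± 103 CPM (SD, n = 3) in untreated cells. *EEF1G*, a subunit of the exchange factor that recharges eEF1A, was at 2197 ± 78.2 RPKM (SD, n = 3). *EIF5A*, whose hypusinated protein helps the ribosome through difficult peptide bonds, was at 1423 ± 103 RPKM, and *EEF2*, the translocase, at 1347 ± 28.3 RPKM. These neighbours, *EIF5A* and *EEF2*, did not differ beyond their spread. *EEF1A1*, which delivers aminoacyl-tRNA, followed at 845 ± 165 RPKM, and *EEF1B2*, another exchange factor subunit, at 628.9 ± 50.04 RPKM. The canonical *EEF1A1* transcript of 3512 bases is longer than its coding sequence of 1389 bases requires, so its RPKM depends on that choice, and because processed copies of *EEF1A1* exist, its reads are uncertain. At the other end of the 58 members tested, *EIF4E3*, a cap-binding relative of eIF4E, was at 1.58 ± 0.109 RPKM and *EIF2AK2*, the kinase PKR, at 1.57 ± 0.275 RPKM.

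The question asked of the s4U reads was how quickly each mRNA was renewed. New RNA is read as T-to-C changes, and the fraction new is the share of a gene's reads that were made during the hour of labeling, estimated from the number of conversions per read. The reads themselves show the range. In the 3 untreated libraries, 42.8%, 47.4% and 48.6% of *EIF4A2* reads carried 2 or more conversions, against 0.0771% in the untreated library without s4U. For *EEF1A1* the shares were 2.98%, 3.65% and 3.64% with s4U and 0.0158% without it. *EIF3K*, a peripheral eIF3 subunit, had 0.670%, 0.989% and 1.36% with s4U and 0.0223% without it. Over the 57 members the share without s4U was at most 0.177% in untreated and 0.185% in emetine-treated cells, and the lowest value with s4U was 0.454%.

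The members as a whole were renewed slowly. Their median fraction new was 5.54%, 7.50% and 8.85% in the 3 untreated libraries, and the median over all 10763 genes with enough reads was 9.26%, 12.3% and 14.7% in the same libraries. Averaged over libraries, 39 of 57 members were under 10% new (41% of all genes were), 11 were between 10% and 20%, and 7 were at 20% or above (28.1% of all genes were). A steady state and labeling from the start of the hour were assumed for half-lives. The median half-life was then 9.47 h for the members and 5.65 h for all genes. Half-lives beyond several hours rest on few new reads after 1 h of labeling, and their spread was wide.

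**Figure D1:**
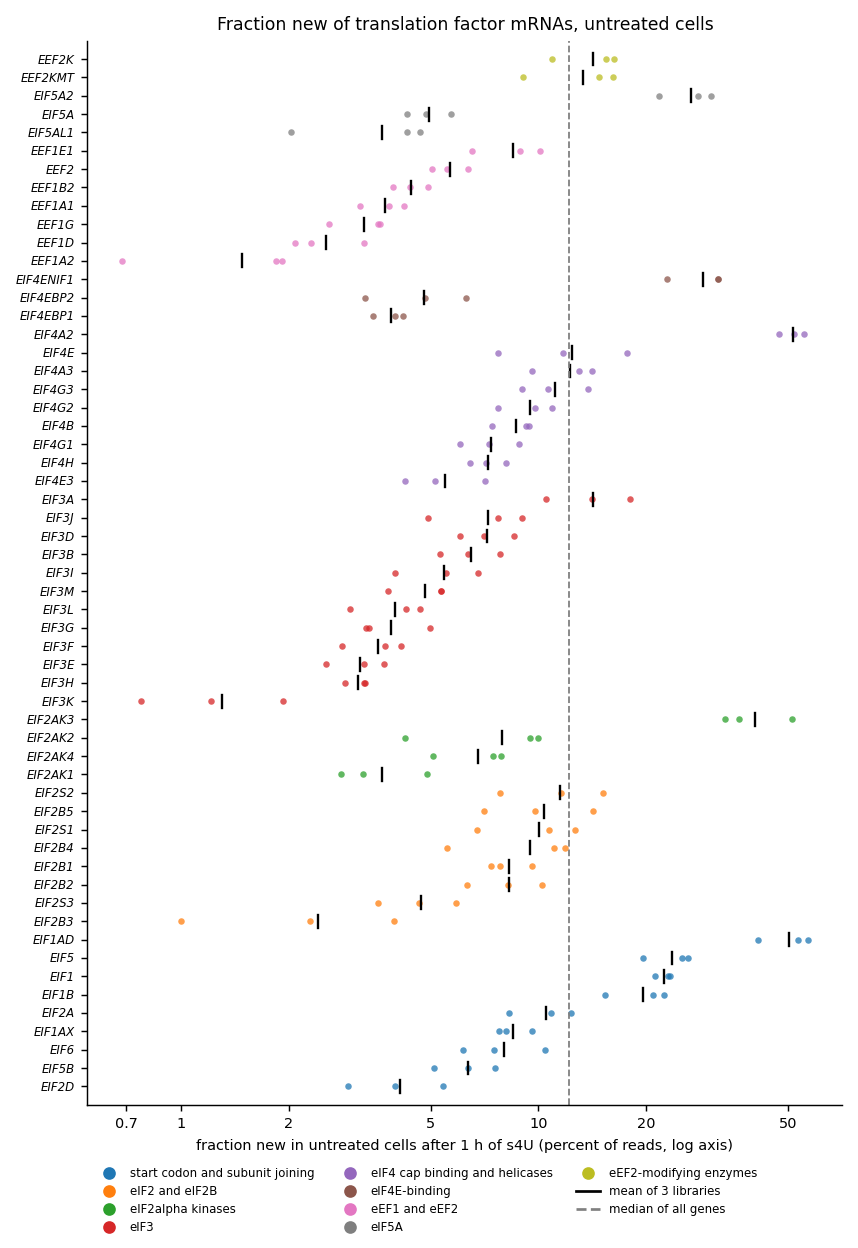
Fraction new in untreated cells (x axis, percent of reads on a log axis) for 57 translation factor mRNAs, grouped and colored by role. Each point is 1 of 3 libraries, the black bar is their mean, and the dashed line is the median of all genes (12.2%). Most eEF1, eEF2 and eIF3 mRNAs lie to the left of the line, and *EIF4A2*, *EIF1AD* and *EIF2AK3* lie farthest to the right.

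The longest-lived group was eEF1 and eEF2, of which all 7 mRNAs were under 10% new, with a median of 3.73%. *EEF1A2*, the eEF1A paralog known from muscle and neurons, was 0.680%, 1.91% and 1.85% new in the 3 untreated libraries, and *EEF1D*, an exchange factor subunit, was 2.54% ± 0.622 (SD, n = 3). The 12 measured eIF3 mRNAs, which encode the scaffold that holds the small subunit and the mRNA together, had a median of 4.39%, and 11 of them were under 10%. *EIF3K* was lowest at 1.302% ± 0.583, with *EIF3H* at 3.13% ± 0.228 and *EIF3E* at 3.16% ± 0.576. *EIF3A*, the largest subunit, was the exception at 14.2% ± 3.76. *EIF2B3*, the gamma subunit of the eIF2 exchange factor, was also among the 5 lowest at 2.41% ± 1.48. *EIF4EBP1* and *EIF4EBP2*, whose proteins sequester eIF4E, were 3.87% ± 0.381 and 4.79% ± 1.4995 new.

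The 7 members at 20% new or above were initiation factors, regulators of initiation, *EIF5A2* and *EIF1AD*. *EIF4A2*, a DEAD-box helicase of the eIF4F complex, was 47.1%, 52.0% and 55.6% new in the 3 untreated libraries, which corresponds to a half-life of 0.962 ± 0.118 h (SD, n = 3), and its mean stood at percentile 95.6 of all genes. *EIF1AD*, which encodes a protein with the S1-like domain of eIF1A, was 41.2%, 53.3% and 57.0% new, with a half-life of 1.01 ± 0.258 h. The fractions of these 2 genes overlapped between libraries. *EIF2AK3*, the endoplasmic reticulum stress kinase PERK that phosphorylates eIF2alpha, was 33.4%, 36.4% and 51.3% new, with a half-life of 1.40 ± 0.389 h. The 3 other eIF2alpha kinases were slower, namely *EIF2AK2* at 7.89% ± 3.19, *EIF2AK4* (GCN2) at 6.79% ± 1.52 and *EIF2AK1* (HRI) at 3.64% ± 1.09.

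*EIF4ENIF1*, the eIF4E transporter 4E-T that binds eIF4E in processing bodies, was 28.8% ± 5.07 new. *EIF5A2*, *EIF5* (the GTPase-activating protein of eIF2) and *EIF1* (a gatekeeper of start codon choice) followed with 26.7% ± 4.45, 23.8% ± 3.57 and 22.5% ± 1.13. Each of these 4 genes overlapped in its library values with the next. The mRNA of *EIF1B*, the near twin of *EIF1*, was 19.6% ± 3.74 new.

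Pairs of related factors differed in how far their turnover diverged. *EIF4A1*, the main helicase of eIF4F, is absent from the members because its reads were all given jointly to *EIF4A1* and the overlapping readthrough gene *SENP3-EIF4A1*. These shared reads were 7.17%, 8.18% and 9.53% new in untreated cells (half-life 8.12 ± 1.1965 h), well under every *EIF4A2* value, and *EIF4A3*, the helicase of the exon junction complex, was 12.3% ± 2.35 new. *EIF5A* was 4.29%, 4.85% and 5.71% new, and its paralog *EIF5A2* was 21.8%, 30.4% and 28.0%, again without overlap. *EIF4G1* at 7.39% ± 1.42 and *EIF4G3* at 11.1% ± 2.42, both scaffolds of eIF4F, came close without overlapping, with a highest *EIF4G1* value of 8.85% and a lowest *EIF4G3* value of 8.99%. *EIF1* overlapped with *EIF1B*, and *EIF4EBP1* with *EIF4EBP2*, and *EEF1A1* at 3.73% ± 0.515 lay above *EEF1A2* in each library.

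The helicase pair encodes close relatives. The stretch around the DEAD box that gives these helicases their name is shown for both genes from GENCODE 44 on GRCh38 (coding exon, plus strand), chr17:7577076-7577105 for *EIF4A1* and chr3:186786184-186786213 for *EIF4A2*, with the bases that differ in capitals.
EIF4A1: tttgtACtggatgaagcTgaCgaaatgttA
EIF4A2: tttgtTTtggatgaagcAgaTgaaatgttG
Of these 30 bases 5 differed, 4 of them at the third position of a codon, and all 10 codons encoded the same residue in both genes. Over the whole coding sequence the third position was G or C in 61.4% of codons in *EIF4A1* and 43.1% in *EIF4A2*. The median of this share was 43.1% over the 7 members at 20% new or above (36.4% to 65.1%) and 57.1% over 38 of the 39 members under 10% new (31.0% to 89.0%), with 60.7% over 19516 coding genes. The highest share, 89.0%, was that of *EEF1A2*, and *EIF4G2*, whose annotated coding sequence does not start with ATG, was left out. The ranges of both sets overlapped, and this is a description without a test.

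The start sites of the members were examined for the TOP motif, since it is typical of this machinery. The motif was a C at the annotated first base followed by 4 bases that are each C or T, read on the transcript strand only, in RefSeq starts of GRCh38.p14. It was found in 12 of 49 members matched in the table (24.5%) and in 5.14% of 27305 genes (4.07% of 35116 starts). The windows run from 10 bases before the start to 20 bases from it, with the unbroken pyrimidine run from the first base in capitals. The first 9 hold the motif, and the last 3 belong to short-lived members without it. *EEF1B2* and *EIF5* have 2 annotated starts each. For *EEF1B2* only the 1 with the motif is shown, and for *EIF5*, which has the motif at neither, only 1 is shown.
EEF1A1: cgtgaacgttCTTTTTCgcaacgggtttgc
EEF2: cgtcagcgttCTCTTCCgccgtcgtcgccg
EEF1B2: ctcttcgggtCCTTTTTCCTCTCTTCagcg
EIF3F: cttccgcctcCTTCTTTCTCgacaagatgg
EIF3K: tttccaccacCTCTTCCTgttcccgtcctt
EIF3D: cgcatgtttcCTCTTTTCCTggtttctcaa
EIF2S3: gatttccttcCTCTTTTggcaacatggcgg
EIF4B: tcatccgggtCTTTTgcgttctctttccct
EIF4A2: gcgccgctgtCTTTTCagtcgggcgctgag
EIF1: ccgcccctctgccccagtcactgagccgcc
EIF5: ggcgttgttcagtcagagcgagaacattcc
EIF1AD: cagcgccggaagtacggttttcggagggat
The windows of *EEF1A1* (chr6:73521013-73521042), *EEF2* (chr19:3985444-3985473), *EIF3D* (chr22:36529147-36529176) and *EIF1AD* (chr11:66002138-66002167) lie on the minus strand. Those on the plus strand are *EEF1B2* (chr2:206159885-206159914), *EIF3F* (chr11:7987327-7987356), *EIF3K* (chr19:38619178-38619207), *EIF2S3* (chrX:24054946-24054975), *EIF4B* (chr12:53006446-53006475), *EIF4A2* (chr3:186783567-186783596), *EIF1* (chr17:41688875-41688904) and *EIF5* (chr14:103334227-103334256).

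Members with the motif had a median fraction new of 4.75%, and those without it 8.38%. The ranges of both sets overlapped nearly throughout, and the difference was not tested. Of the 12 with the motif, 10 were under 10% new, and *EIF2A*, an alternative carrier of initiator tRNA, was at 10.5%. The remaining one was *EIF4A2*, whose run of 6 pyrimidines stands at the start of the shortest-lived member. Of the 34 measured members without the motif, 21 were also under 10% new. A list of 9 factors known as TOP mRNAs, taken from general knowledge, gave a median of 3.55%. All 9 were under 10% new, with a highest value of 8.68% for *EIF4B*, which stimulates the helicase. *EEF1G*, on this list and 3.25% new, was among the members without the motif at an annotated start.

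After 1 h of emetine the level of *EIF4A2* rose, and it was the only member past an adjusted p of 0.05 in the edgeR quasi-likelihood test (365 genes, or 2.65% of 13776, rose and 6, or 0.0436%, fell). *EIF4A2* stood at 122, 125 and 139 CPM in the untreated libraries and at 224, 213 and 184 CPM in the emetine libraries. All emetine values lay above all untreated values. The log2 fold change was 0.69 ± 0.10 (SE, n = 3 against 3), with an adjusted p of 0.0152. Without emetine replicate 3 it was 0.77 with an adjusted p of 4.66e-06, and without emetine replicate 2 it was 0.66 with an adjusted p of 0.0337. Leaving out any 1 untreated library gave adjusted p-values of 0.1205, 0.1245 and 0.0754 for replicates 1 to 3, and leaving out emetine replicate 1 gave 0.0510, with log2 fold changes between 0.62 and 0.75. Under scaling to the spike-in reads, which moved the median of all genes to 0.71, the log2 fold change of *EIF4A2* was 1.378 with an adjusted p of 0.129. In the single libraries without s4U the level was 165 CPM in untreated cells (exact Poisson 95% interval 160 to 170, counting error only) and 251 CPM in emetine-treated cells (246 to 257), a log2 ratio of 0.61 without a replicate.

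*EIF5* was next, with 262, 256 and 243 CPM in untreated and 319, 326 and 351 CPM in emetine-treated cells. Its groups did not overlap either, but its log2 fold change of 0.39 ± 0.09 had an adjusted p of 0.0576. Without emetine replicate 3 it was 0.35 with an adjusted p of 0.00127. In DESeq2 with all 6 libraries it was 0.36 with an adjusted p of 0.00180. After removal of a trend with transcript length and GC content it was 0.17 with an adjusted p of 0.113 in edgeR. The single libraries without s4U gave 288 CPM (281 to 295) and 318 CPM (312 to 324).

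Other positive log2 fold changes did not pass the test. *EIF2AK3* was at 13.6, 13.7 and 13.2 CPM in untreated and 16.4, 14.8 and 21.1 CPM in emetine-treated cells, a log2 fold change of 0.37 ± 0.15 with an adjusted p of 0.205, and its groups did not overlap. *EIF3A* had 240, 253 and 182 CPM against 237, 233 and 385 CPM, and *EIF4G3* had 112, 108 and 97.4 CPM against 115, 105 and 175 CPM. In both genes the high emetine value was that of replicate 3. Their log2 fold changes were 0.34 ± 0.21 and 0.31 ± 0.18 with it, and 0.06 and 0.05 without it.

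Most of the remaining members had log2 fold changes slightly below 0. This held for 46 of 58 members (46% of all genes tested), and for 46 of 58 again without emetine replicate 3 (48% of all genes). The median was -0.16 over the members and 0.03 over all genes, and without emetine replicate 3 it was -0.10 and 0.01. All 3 emetine values lay below all 3 untreated values in 22 of 58 members (15.2% of all genes), among them 7 of the 12 eIF3 and 5 of the 7 eEF1 and eEF2 mRNAs, and above them in 4 members (19.5% of all genes). No member fell past the threshold with all 6 libraries in edgeR, where at an unadjusted p under 0.05 there were 10 lower members (6.95% of all genes) and 3 higher ones (14.9%), and 1, *EIF5AL1*, did in DESeq2 (1.13% of all genes fell there and 5.95% rose). Without emetine replicate 3, 5 members fell (3.83% of all genes) and 2 rose (9.91%). In the pair of libraries without s4U the median log2 ratio was -0.01 over the members, with 31 of 58 below 0, and 0.00 over all genes.

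The members that fell without emetine replicate 3 were *EIF3F* and *EIF3I*, both eIF3 subunits, with log2 fold changes of -0.21 (adjusted p = 0.0334) and -0.20 (0.0424), *EIF4EBP1* (-0.25, adjusted p = 0.0391), *EIF5A* (-0.25, adjusted p = 0.0361) and *EIF5AL1* (-0.69, adjusted p = 0.0153), all in edgeR. With all 6 libraries *EIF3I* was at 500, 529 and 516 CPM in untreated and 432, 465 and 343 CPM in emetine-treated cells, and *EIF5A* at 1704, 1745 and 1946 CPM and 1425, 1587 and 1140 CPM. Replicate 3 was the lowest emetine value in both, and neither gene's groups overlapped. The log2 fold changes with all libraries were -0.32 ± 0.12 and -0.38 ± 0.14, with adjusted p-values of 0.199 and 0.187.

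*EIF5AL1*, an intronless copy of *EIF5A* whose reads cannot be told apart with certainty from those of its parent, had 73.5, 44.5 and 70.0 CPM in untreated and 44.5, 32.7 and 36.5 CPM in emetine-treated cells. The groups touched at the second untreated library, and the log2 fold change was -0.72 ± 0.19 with an adjusted p of 0.0921 in edgeR and 0.00619 in DESeq2. *EIF4EBP3*, an eIF4E-binding protein gene with 204 reads in all, had the most negative log2 fold change, -0.84 ± 0.34, with an adjusted p of 0.210. Another 2006 reads of the 6 libraries were shared by *EIF4EBP3* and the readthrough gene *ANKHD1-EIF4EBP3*. These were at 11.0 ± 2.48 CPM in untreated and 10.6 ± 2.81 CPM in emetine-treated cells (SD, n = 3, not tested), and the groups overlapped.

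Among the elongation factors, *EEF1B2* had 496, 553 and 475 CPM in untreated and 373, 468 and 273.5 CPM in emetine-treated cells, and *EEF1A1* had 2792, 3616 and 2498 CPM and 1906, 2791 and 1861 CPM. The groups of *EEF1A1* overlapped and those of *EEF1B2* did not. Their log2 fold changes were -0.45 ± 0.18 and -0.44 ± 0.20, with adjusted p-values of 0.201 and 0.229. *EIF4EBP1*, at 263, 275 and 319 CPM in untreated and 229, 249 and 159 CPM in emetine-treated cells, had -0.43 ± 0.16 with an adjusted p of 0.195. All 7 eEF1 and eEF2 mRNAs had a negative log2 fold change, with a median of -0.27, and -0.19 without emetine replicate 3, where *EEF1E1*, a component of the tRNA synthetase complex, was above 0. The 9 known TOP factors had a median of -0.26, and -0.19 without emetine replicate 3, with 9 of 9 below 0 in both.

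**Figure D2:**
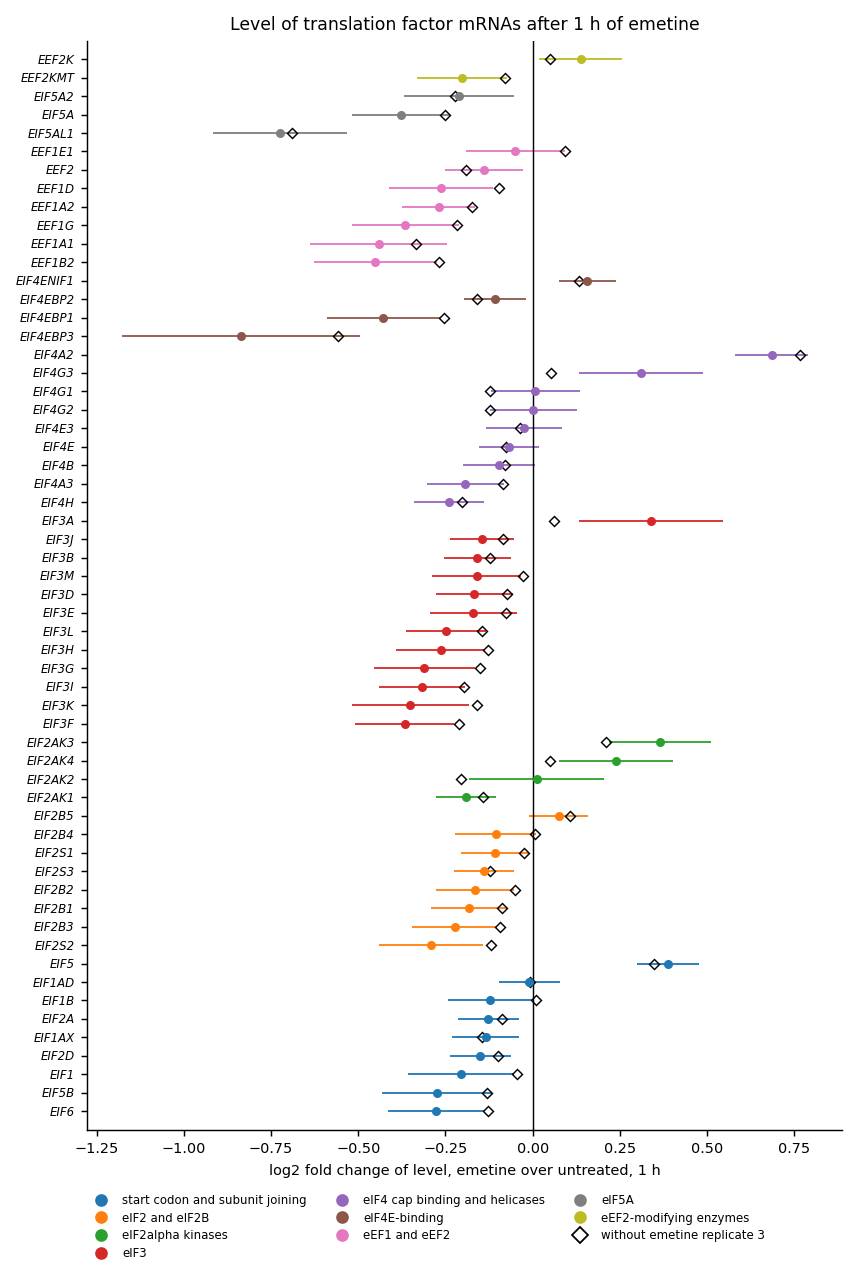
Change in level after 1 h of emetine (x axis, log2 fold change of emetine over untreated) for 58 translation factor mRNAs, grouped and colored by role. Filled points are edgeR estimates from 3 against 3 libraries with bars of 1 SE, and open diamonds are estimates without emetine replicate 3. *EIF4A2* stands farthest to the right in both, and 46 of 58 points lie left of 0 in both.

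Transcript length moved with these changes. The 16 members under 2000 bases had a median log2 fold change of -0.29, the 24 between 2000 and 4000 bases -0.16, and the 18 of 4000 bases or more -0.07. Without emetine replicate 3 the medians were -0.15, -0.09 and -0.04. After removal of the trend with length and GC content they were -0.16, -0.22 and -0.28, so the order turned, and 10 members fell (5.32% of 13484 genes) while *EIF4A2* rose with 0.68 and an adjusted p of 9.63e-04. The 10 were *EEF1G*, *EIF1AX*, *EIF2A*, *EIF2AK1*, *EIF2S3*, *EIF3I*, *EIF3L*, *EIF4EBP2*, *EIF5A* and *EIF5AL1*, with log2 fold changes from -0.85 (*EIF5AL1*) to -0.20 (*EIF3I*). The part of RNA quality or library preparation in these values was not tested.

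**Figure D3:**
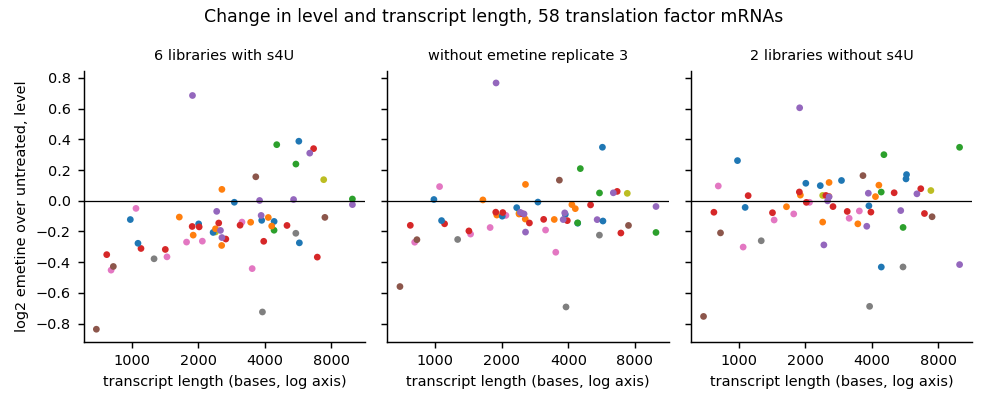
Change in level (y axis, log2 of emetine over untreated) against the length of the canonical transcript (x axis, bases on a log axis) for 58 translation factor mRNAs, colored by role as in the plot of changes in level. With all 6 libraries shorter transcripts lie lower (medians -0.29, -0.16 and -0.07 from short to long), and the slope is smaller without emetine replicate 3 (-0.15, -0.09 and -0.04). The right panel has 1 library a group.

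Emetine also changed the fraction new of many genes, but no member passed the threshold in limma (23 genes, or 0.214% of 10763, rose and 520, or 4.83%, fell). At an unadjusted p under 0.05, 1 member was lower (15.4% of all genes) and 0 were higher (1.15%). Between conditions the member medians were 5.54%, 7.50% and 8.85% in untreated and 7.08%, 6.67% and 7.12% in emetine-treated cells, so the groups overlapped. The lone member under 0.05 unadjusted was *EIF1AD*, which was 41.2%, 53.3% and 57.0% new in untreated and 32.6%, 36.0% and 38.9% in emetine-treated cells. The groups did not overlap. Its logit changed by -0.60 ± 0.23 (SE, n = 3 against 3), with an adjusted p of 0.119. Untreated replicate 1 had the lowest fraction new, and without it the change was -0.79 with an adjusted p of 0.00623. In that fit *EIF1B*, *EIF2B4*, *EIF4ENIF1*, *EIF5* and *EIF5AL1* were also lower, which made 6 of 57 members beside 23.5% of all genes. With each library centered on its median, *EIF1AD* was lower (adjusted p = 0.0419, 6.95% of all genes lower) and *EIF2B2*, a subunit of eIF2B, higher (adjusted p = 0.0142, 1.17% of all genes higher).

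The emetine values lay below all untreated values in 5 of 57 members (16.8% of all genes) and above them in 2, *EIF2B2* and *EIF3H* (2.2% of all genes). Of the former, *EIF1*, *EIF1AD*, *EIF1B* and *EIF5* were listed under start codon and subunit joining, a role that is not established here for *EIF1AD*. The other was *EIF4A2*, at 47.1%, 52.0% and 55.6% in untreated and 43.99%, 44.7% and 45.1% in emetine-treated cells. *EIF1*, with 21.2%, 23.3% and 23.0% against 18.0%, 18.4% and 18.7%, had a logit change of -0.25 and an adjusted p of 0.624. Of these 5 members, all but *EIF1B* (19.6%) were at 20% new or above in untreated cells. The logit change was below 0 in 6 of 7 members at 20% or above and in 25 of 50 under 20%. Across all genes the counts were 2843 of 3025 and 5289 of 7738, and a link to role was not tested.

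Each level was then split into reads made before and during the hour. The unlabeled reads of *EIF4A2*, the CPM multiplied by the share that was not new, were 64.5, 59.9 and 61.9 CPM in untreated and 125, 118 and 101 CPM in emetine-treated cells, with no overlap. The log2 fold change after 0.5 CPM was added was 0.88 ± 0.10, with an adjusted p of 0.00209 in limma (7.3% of all genes rose and 0.0929% fell). Its labeled reads were 57.5, 64.8 and 77.6 CPM in untreated and 98.5, 94.97 and 83.1 CPM in emetine-treated cells, also with no overlap. Their log2 fold change of 0.47 ± 0.21 had an adjusted p of 0.310 in limma. The unlabeled change passed the threshold without any 1 library, with values from 0.81 to 0.96. The difference between the changes of labeled and unlabeled reads is that of the fraction new, which did not pass the test for *EIF4A2* (adjusted p = 0.631).

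*EIF5* was the other member whose unlabeled reads rose, from 211, 191 and 179 CPM to 259, 263 and 282 CPM, a log2 fold change of 0.47 ± 0.10 with an adjusted p of 0.0222 in limma. Leaving out emetine replicate 1 gave an adjusted p of 0.0526, and leaving out untreated replicate 2 or 3 gave 0.124 or 0.1395. Its labeled reads, at 51.6, 64.6 and 64.1 CPM in untreated and 60.2, 62.7 and 69.0 CPM in emetine-treated cells, overlapped. Unlabeled reads of *EIF1AD* were 29.6, 24.6 and 24.6 CPM in untreated and 34.7, 34.7 and 32.6 CPM in emetine-treated cells (log2 fold change 0.37 ± 0.11, adjusted p = 0.0898), and its labeled reads were 20.7, 28.0 and 32.6 CPM and 16.8, 19.5 and 20.7 CPM (-0.48 ± 0.22, adjusted p = 0.348). Its level was thus nearly equal in both conditions, at 53.4 ± 3.54 and 53.0 ± 1.382 CPM (SD, n = 3). Without emetine replicate 3 the unlabeled reads of 3 members rose (13.7% of all genes), *EIF1AD* with 0.40 and an adjusted p of 0.0160 being the addition, and those of 5 fell (3.56% of all genes), namely *EEF2*, *EIF3F*, *EIF3I*, *EIF4EBP1* and *EIF5A*.

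Labeled reads fell in 1 member, *EEF1G* (0.632% of all genes fell and 0.26% rose). They were 79.2, 116 and 116 CPM in untreated and 57.97, 75.9 and 51.4 CPM in emetine-treated cells, without overlap, and the log2 fold change was -0.74 ± 0.20 with an adjusted p of 0.0388 in limma. Its unlabeled reads, at 2969, 3144 and 3106 CPM and 2464, 2854 and 1895 CPM, had -0.37 ± 0.17 with an adjusted p of 0.191. The call on the labeled reads was lost without each of 5 libraries, with adjusted p-values of 0.544 (emetine replicate 1), 0.0676 (emetine replicate 2), 0.477 (emetine replicate 3), 0.7885 (untreated replicate 2) and 0.167 (untreated replicate 3). Without untreated replicate 1 it was 0.00219, and 13 of 57 members then had lower labeled reads, beside 16.1% of all genes.

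**Figure D4:**
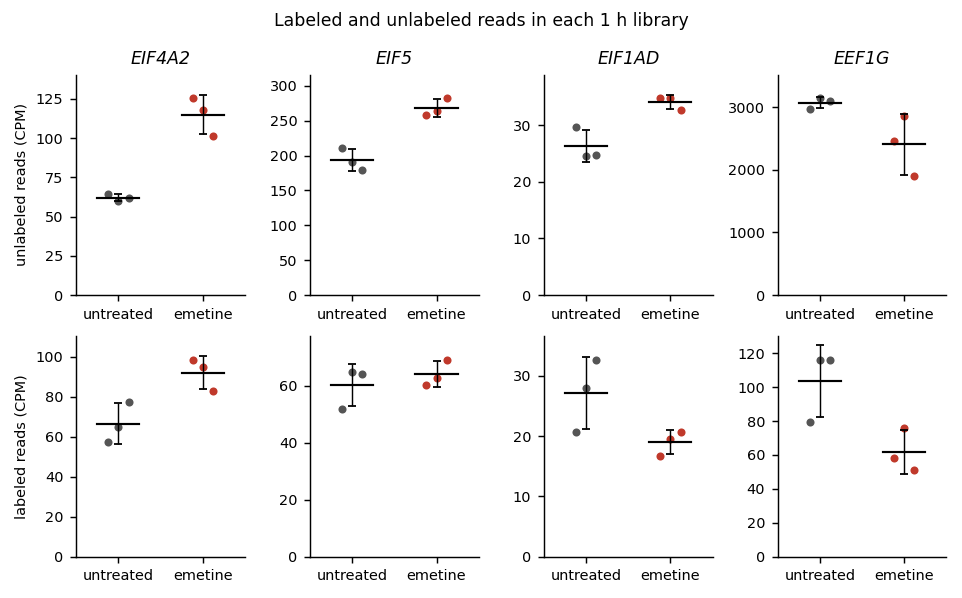
Unlabeled (upper row) and labeled reads (lower row) of 4 translation factor mRNAs in CPM (y axes, from 0) in untreated and emetine-treated cells. Points are the 3 libraries of each group, and bars are the mean and SD. The unlabeled reads of *EIF4A2* and *EIF5* lie higher in all emetine libraries, and the labeled reads of *EEF1G* lie lower.

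The sign of the change in unlabeled reads differed with the untreated fraction new, among the members and across all genes. Of the 7 members at 20% new or above, 5 had a log2 fold change of unlabeled reads above 0, with a median of 0.37. Of the 50 members under 20% new, 6 did, with a median of -0.17. Across all genes 90.9% of 3025 genes at 20% or above and 42.2% of 7738 below it were above 0, with medians of 0.39 and -0.05. *EIF5A2* and *EIF1* were the members at 20% or above with values below 0, -0.22 and -0.15. Both axes use the untreated libraries, so these counts are a description.

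**Figure D5:**
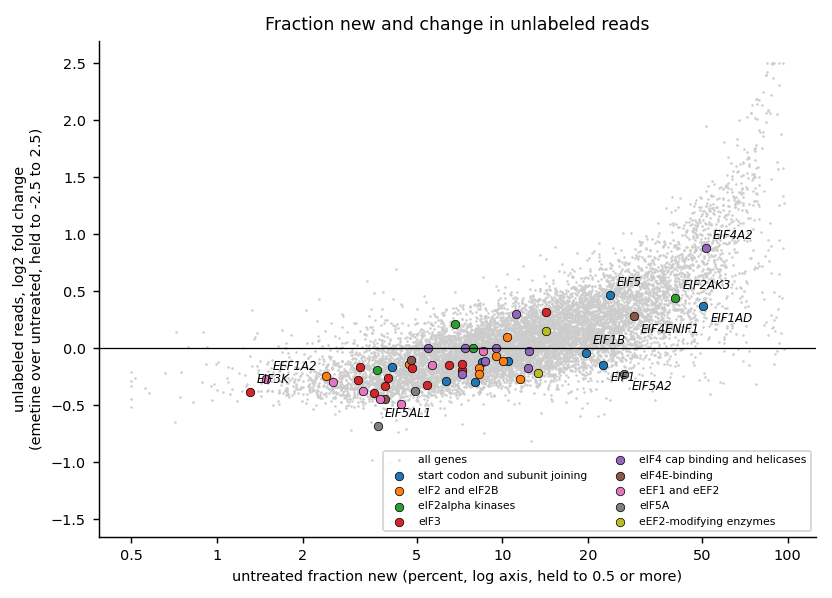
Change in unlabeled reads after 1 h of emetine (y axis, log2 fold change) against the untreated fraction new (x axis, percent on a log axis). Gray points are 10763 genes and colored points are 57 translation factor mRNAs by role. *EIF4A2*, at 51.6% new and 0.88, lies highest among the members, and members under 10% new lie mostly below 0 (37 of 39).

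By role, *EIF4A2* was the single call in level among the 9 groups. The 4 eIF2alpha kinases had a median log2 fold change of 0.13 with all libraries and -0.05 without emetine replicate 3. The 8 eIF2 and eIF2B mRNAs had -0.15 and -0.07, with 7 and 6 of 8 below 0. *EIF2S3*, the gamma subunit of eIF2, was at 459 ± 2.99 CPM in untreated and 417 ± 7.94 CPM in emetine-treated cells without overlap, with -0.14 ± 0.08 and an adjusted p of 0.337. The 9 eIF4 mRNAs tested had a median of -0.03, and apart from *EIF4A2* the scaffolds *EIF4G1* (0.01 ± 0.13) and *EIF4G2* (0.00 ± 0.12) were closest to 0. Their values were -0.12 and -0.12 without emetine replicate 3. *EIF4E*, the cap-binding protein, had -0.07 ± 0.09 and an adjusted p of 0.635. The 2 mRNAs of enzymes that modify eEF2, *EEF2K* (its kinase) and *EEF2KMT* (a lysine methyltransferase), had 0.14 ± 0.12 and -0.20 ± 0.13.

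Other genes of translation were taken from a list of 35 symbols, namely poly(A)-binding proteins and their partners, release and recycling factors, helicases and repressors, factor-modifying enzymes, mitochondrial factors and the selenocysteine elongation factor. None of the 35 passed the threshold in level and none of 34 in fraction new with all libraries, in edgeR and limma respectively. At an unadjusted p under 0.05 in these tests, 3 were lower in level (6.95% of all genes) and 0 higher (14.9%). In fraction new, 1 was lower (15.4% of all genes) and 1 higher (1.15%). Their median log2 fold change was -0.07, with 25 of 35 below 0, and their median fraction new was 8.91%. *GSPT2*, a release factor GTPase, was 35.8% ± 2.54 new, against 6.91% ± 2.62 for its paralog *GSPT1*. In DESeq2 with all libraries 2 of 35 fell (1.13% of all genes), *PAIP2* (-0.40, adjusted p = 0.0136) and *PABPC1* (-0.26, adjusted p = 0.0392). With the length and GC trend removed 5 did (5.32% of all genes). Without emetine replicate 3, 4 of 35 fell (3.83% of all genes) and 0 rose (9.91%). These were *PABPC1*, the main poly(A)-binding protein (-0.24, adjusted p = 0.0264), *PAIP2*, its inhibitor (-0.30, adjusted p = 0.00800), *DDX3X*, an initiation helicase (-0.37, adjusted p = 0.00590), and *MKNK2*, an eIF4E kinase (-0.29, adjusted p = 0.00520).

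In the 2 h experiment 56 of the 60 members were listed among 9982 genes. The deposited tables give 1 mean of normalized counts per gene over all conditions, which holds no comparison between doses, and the tables of both doses hold the same means. Members ranged from 317 (*EEF1E1*) to 74254 (*EEF2*) with a median of 2846, and the median of all listed genes was 845. *EIF4A2* was at 5977 and *EIF5* at 11787 in these means. Because the library kit differed from that of the 1 h experiment, levels were not compared between them.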

How the data were processed

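TL-seq libraries of HEK-293T cells were grouped by the treatment, time and replicate in their labels. The authors trimmed reads with cutadapt, aligned them to hg38 with hisat-3n and summarised T-to-C mismatches with bam2bakR. Unnormalized read counts by gene, T positions and conversions were deposited (TruSeq Stranded mRNA kit, no molecular identifiers described). Intervals therefore cover counting error only. Labels do not say whether replicates were separate cultures, so p-values measure the spread between these libraries. Of the deposited 2 h tables, only the authors' signal, the mean of spike-in-normalized counts, was used; their log2 fold changes, standard errors and p-values were not used.

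Counts per gene were tested with edgeR 4.0.16 (TMM, quasi-likelihood, over 100 reads in all) in R 4.3.3. The fraction new is the weight of a 2-component binomial mixture, with the background rate from the library without s4U and the new-read rate fitted per library. Its logit (bounded at 0.001 and 0.999), and log2 labeled and unlabeled CPM plus 0.5, were tested with limma 3.58.1 (at least 100 reads in each library). P-values were adjusted over all genes after Benjamini and Hochberg. A half-life is -ln(2) divided by ln(1 - fraction new), in hours, assuming a steady state and labeling from the start of the hour. Alternatives included DESeq2 1.42.0 and a trend on length and GC content (mgcv 1.9.3). Python 3.11.15 was used, with lengths from GENCODE 44. Members on chromosome 8 were not searched for the start motif. Members and gene lists were chosen with earlier results of these data known. Named genes were members past the threshold, the 5 largest changes each way, the 5 highest and lowest fractions new, the 5 highest levels and paralog pairs; members called under an alternative, group examples and other translation genes were named after their values were seen.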

Additional observations from a re-analysis of the deposited data

Results flagged for a closer look

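Signal lay in reads that entered no test because they were given to more than 1 gene. *EIF4A1* and *SENP3-EIF4A1* shared 417189 reads over 8 libraries, at 1914 ± 103 CPM in untreated and 1571 ± 253 CPM in emetine-treated cells (SD, n = 3). The emetine libraries were 8.02%, 8.28% and 8.16% new, within the untreated range. *EIF3C* and *EIF3CL* shared 3679 reads, 3.27% ± 0.846 new in untreated cells, whereas *EIF3C* alone had 7 reads in the 6 libraries with s4U. *EEF1E1* and *EEF1E1-BLOC1S5* shared 10626 reads over 8 libraries, beside 10293 given to *EEF1E1* alone. The shared reads were 5.23% ± 2.15 new in untreated cells and the reads of *EEF1E1* alone 8.51% ± 1.81, with overlapping library values. *ANKHD1-EIF4EBP3* and *EIF4EBP3* shared 2744 reads, 18.4% ± 5.06 new in untreated cells, beside 240 given to *EIF4EBP3* alone.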

How the results depend on the processing

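Among 58 members, the count that rose in level (1) was 2 in DESeq2 and 0 with spike-in scaling, and the count that fell (0) was 1 in DESeq2, 1 without a count filter and 10 with the length and GC trend removed. Over all genes 365 rose and 6 fell, against 820 and 156 in DESeq2, 762 and 717 with that trend removed and 1365 and 527 without emetine replicate 3. With libraries left out in turn these counts ranged from 0 to 2 and from 0 to 5. Lower fractions new (0) ranged from 0 to 6, lower labeled reads (1) from 0 to 13, higher unlabeled reads (2) from 1 to 3 and lower unlabeled reads (0) from 0 to 5. Centering gave 1 higher and 1 lower fraction new. The cause was not tested. Spike-in scaling turned the log2 fold changes of *EIF5AL1* (0.062), *EEF1B2* (0.15), *EEF1A1* (0.11), *EEF1G* (0.27) and *EIF4EBP1* (0.23), below the all-gene median of 0.71. Labels do not say whether replicate numbers pair libraries, and same-number correlations of -0.14 to 0.08 do not settle it. In both 1 h groups with s4U, replicate 2 held the most reads given to 1 gene and replicate 3 the fewest. With a replicate block, 0 members rose in level (*EIF4A2* adjusted p = 0.0712), labeled reads fell in 0 (*EEF1G* 0.0553) and unlabeled reads rose in 1 (*EIF5* 0.0946). The median untreated fraction new of the members was between 6.13% and 8.07% under its alternatives. The smallest p of an exact permutation test of 3 against 3 is 0.1. With 3 libraries a group and emetine replicate 3 apart from the others, members that did not pass may still have changed.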
